A study of Mus musculus with 8 samples.

Results

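A set of 9 genes of the muscle fibre's membrane anchor and of its filament network was followed in injured mouse muscle: 5 of the dystrophin complex (Dmd, Utrn, Dag1, Sgca and Sgcd) and 4 of the intermediate filaments (Des, Synm, Vim and Nes). Members were the rows whose platform annotation named exactly 1 of these symbols. Each gene had 1 such row, so no choice between rows arose, and all 9 passed the filter on dim rows, among 15007 genes tested. The 9 symbols were selected on log2 intensities already compared between the groups, with those results known, so their group differences are given as a description, without a test.

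RNA was profiled from the entire tibialis anterior, a fast-twitch muscle along the shin, 8 days after a liquid nitrogen chilled probe was held to it for 8 seconds. There were 4 samples of Foxp3-Cre/ST2 flox mice (ST2 flox) and 4 of Foxp3-Cre/ST2 WT mice (ST2 WT), all male C57BL/6, with an age of 10 weeks in the sample labels and 2 months in the series text. Both groups carry Foxp3-Cre, which is active in regulatory T cells, and in the ST2 flox mice it removes ST2, the receptor for interleukin-33, from those cells and not from muscle fibres. The loss of ST2 itself was not analysed here. One Affymetrix Mouse Gene 1.0 ST array was made per sample. The labels do not say that each sample came from its own animal, so the spread between samples may be technical.

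Dystrophin links the actin skeleton under the fibre membrane to dystroglycan, which crosses the membrane and binds laminin in the matrix outside. The sarcoglycans stabilise this link, and utrophin, a close relative of dystrophin, is found in regenerating fibres and at the nerve-muscle junction. Desmin filaments tie the contractile apparatus to the membrane and the nuclei, and synemin joins them to the dystrophin complex. Vimentin and nestin are filament proteins of myoblasts and young fibres, and vimentin is also abundant in fibroblasts, endothelium and macrophages.

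Markers of the tissue are given by their mean level over the 8 arrays, and only those above the filter, a log2 of 6.35, were tested. All 15 mature fibre markers tested had a mean log2 level of 11.92 or more. All 15 regenerating fibre and myoblast markers tested had one of at least 7.19. The lowest of these, Myf5, lay below the median row at 7.54. Median intensity per array lay between 185 and 189. Limma fits a linear model and draws each gene's own variance toward a value common to all genes. In this fit 0 of 15007 genes passed an adjusted p of 0.05 between ST2 flox and ST2 WT (0%). An unadjusted limma p under 0.05 was found for 569. Leaving out ST2 flox sample 4 let 2 genes pass, Cd3g and Ctsh, neither of them among the 9.

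Of the 9 genes, 5 had a lower mean in ST2 flox muscle (Dmd, Dag1, Sgca, Sgcd and Synm) and 4 a higher one (Utrn, Des, Vim and Nes). The median difference was -0.02 log2 over the 9 and -0.002 over all genes tested, of which 51.2% were lower. In limma 0 of the 9 passed the adjusted threshold (0% of all genes did). Synm and Sgcd, both lower, had an unadjusted p under 0.05, as did 3.79% of all genes in either direction and 1.77% in this one, and nothing is read from this, since the contrast helped to choose the genes.

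**Figure D1:**
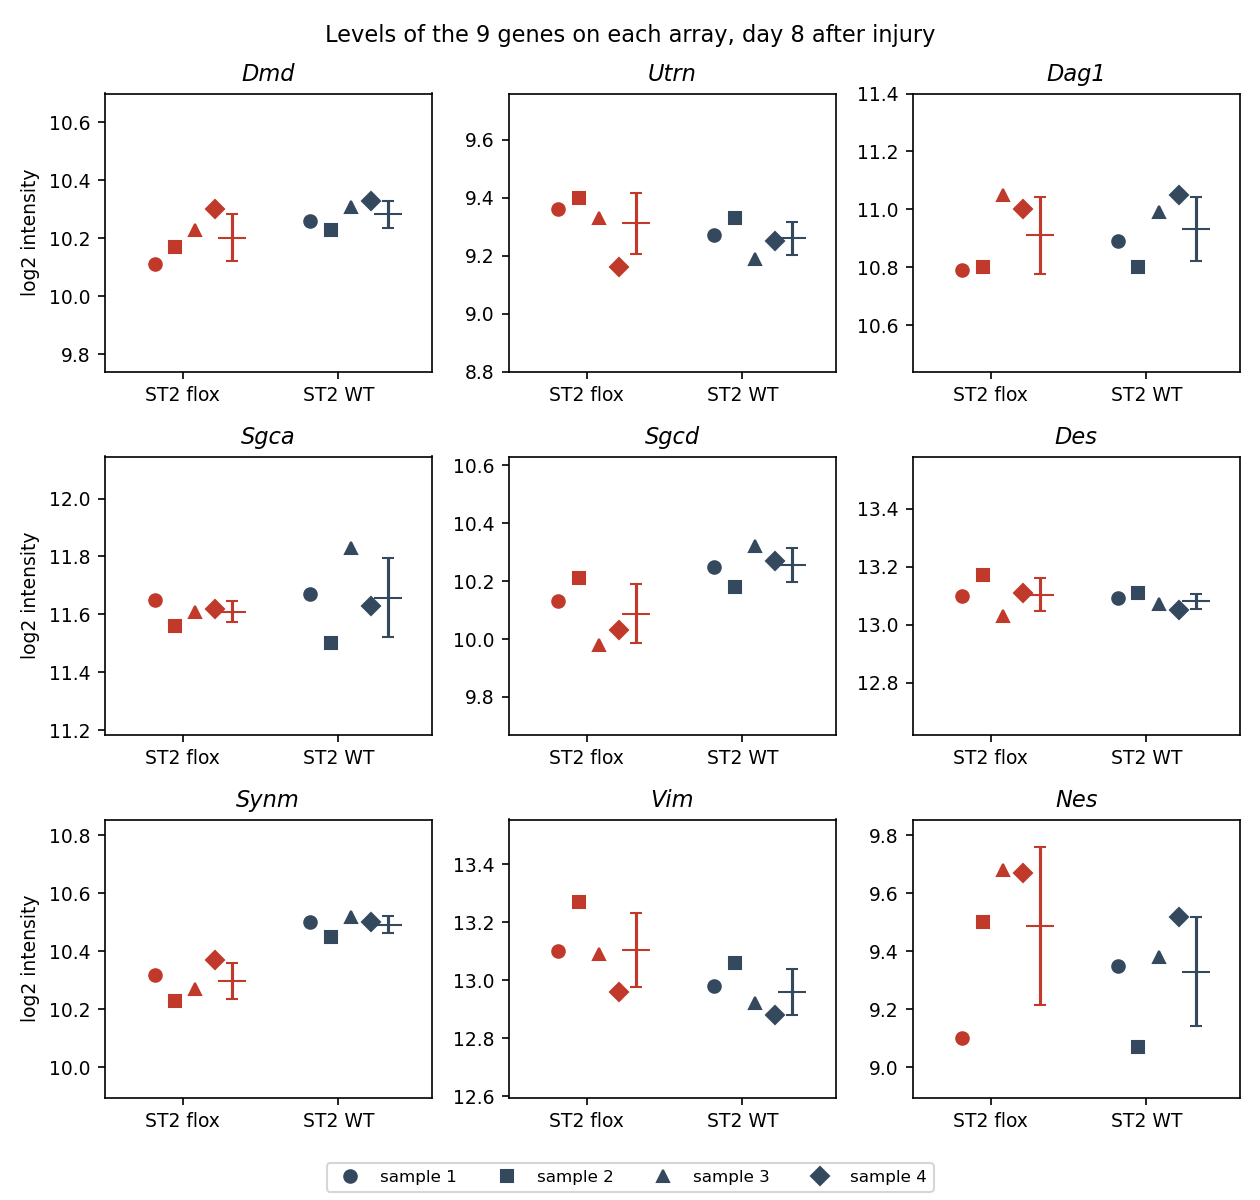
Log2 intensity (y axis) of each of the 9 genes on the 4 ST2 flox arrays (red, left) and the 4 ST2 WT arrays (dark blue, right), with marker shape giving the sample number and bars giving mean ± SD. Every panel spans the same height in log2 units. Synm is the gene whose groups do not overlap, while Nes has the widest spread, from 9.07 to 9.68.

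Dmd encodes dystrophin itself. Its log2 level was 10.11, 10.17, 10.23 and 10.30 on ST2 flox arrays 1 to 4, against 10.26, 10.23, 10.31 and 10.33 on ST2 WT arrays 1 to 4. The groups overlapped, with ST2 flox samples 1 and 2 below every ST2 WT sample. The group difference was -0.08 log2 (SE 0.06, n = 4 and 4), or 0.945-fold, and ranged from -0.12 without ST2 flox sample 4 to -0.05 without ST2 flox sample 1.

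Utrn encodes utrophin. It read 9.36, 9.40, 9.33 and 9.16 in ST2 flox muscle, against 9.27, 9.33, 9.19 and 9.25 in ST2 WT muscle. Both the highest and the lowest sample belonged to ST2 flox, and the groups overlapped. The difference was 0.05 log2 (SE 0.07), and 0.10 without ST2 flox sample 4 or 0.02 without ST2 flox sample 2.

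Dag1, the gene of both dystroglycan subunits, had log2 levels of 10.79, 10.80, 11.05 and 11.00 in ST2 flox muscle, against 10.89, 10.80, 10.99 and 11.05 in ST2 WT muscle. The groups overlapped almost fully, with a difference of -0.02 (SE 0.08) that changed sign without ST2 flox sample 1 or 2 or ST2 WT sample 4. Samples numbered 3 and 4 averaged 11.02 and those numbered 1 and 2 averaged 10.82, and in both genotypes each of samples 3 and 4 lay above each of samples 1 and 2. The labels do not say what a sample number stands for.

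The sarcoglycans are membrane proteins that lock dystroglycan in place. Sgca, alpha-sarcoglycan of striated muscle, read 11.65, 11.56, 11.61 and 11.62 in ST2 flox muscle, against 11.67, 11.50, 11.83 and 11.63 in ST2 WT muscle. Its ST2 flox samples lay close together (SD 0.04) and inside the range of the ST2 WT samples (SD 0.14), with a difference of -0.05 (SE 0.07) that was 0.01 without ST2 WT sample 3. Sgcd, delta-sarcoglycan, which smooth muscle also makes, read 10.13, 10.21, 9.98 and 10.03 in ST2 flox muscle, against 10.25, 10.18, 10.32 and 10.27 in ST2 WT muscle. Only ST2 flox sample 2 and ST2 WT sample 2 crossed. The Sgcd difference was -0.17 (SE 0.07), or 0.890-fold, and stayed between -0.21 and -0.13 when any 1 array was left out.

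Des, the gene of desmin, was the steadiest of the 9. It read 13.10, 13.17, 13.03 and 13.11 in ST2 flox muscle, against 13.09, 13.11, 13.07 and 13.05 in ST2 WT muscle. The groups overlapped and differed by 0.02 (SE 0.05). The spread of Des within groups, an SD of 0.043, was smaller than that of all but 3.41% of genes.

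Synm, the gene of synemin, was the 1 member whose groups were apart. It read 10.32, 10.23, 10.27 and 10.37 in ST2 flox muscle, against 10.50, 10.45, 10.52 and 10.50 in ST2 WT muscle, so all 4 ST2 flox samples lay below all 4 ST2 WT samples. Of all genes, 0.826% were apart in this direction. The difference was -0.19 log2 (SE 0.05), or 0.874-fold, and stayed between -0.22 and -0.17 when any 1 array was left out. A more negative difference was found for 1.49% of genes. Nothing is read from these shares, since the contrast helped to choose the genes. Within groups Synm varied little, with an SD of 0.049.

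Vim, the gene of vimentin, read 13.10, 13.27, 13.09 and 12.96 in ST2 flox muscle, against 12.98, 13.06, 12.92 and 12.88 in ST2 WT muscle. ST2 flox samples 1 to 3 lay above every ST2 WT sample, and ST2 flox sample 4 lay among them. The difference was 0.15 (SE 0.07), or 1.11-fold, and 0.09 without ST2 flox sample 2.

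Nes, the gene of nestin, varied most. It read 9.10, 9.50, 9.68 and 9.67 in ST2 flox muscle, against 9.35, 9.07, 9.38 and 9.52 in ST2 WT muscle, with 1 low sample in each group. The groups overlapped in part, with ST2 flox samples 3 and 4 above every ST2 WT sample and ST2 WT sample 2 below every ST2 flox sample. The difference was 0.16 (SE 0.13). It ranged from 0.07 without ST2 WT sample 2 to 0.29 without ST2 flox sample 1. The SD of Nes within groups, 0.231, lay at the 94.8th percentile of all genes, while 7 of the 9 genes varied less than the median gene (0.108).

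**Figure D2:**
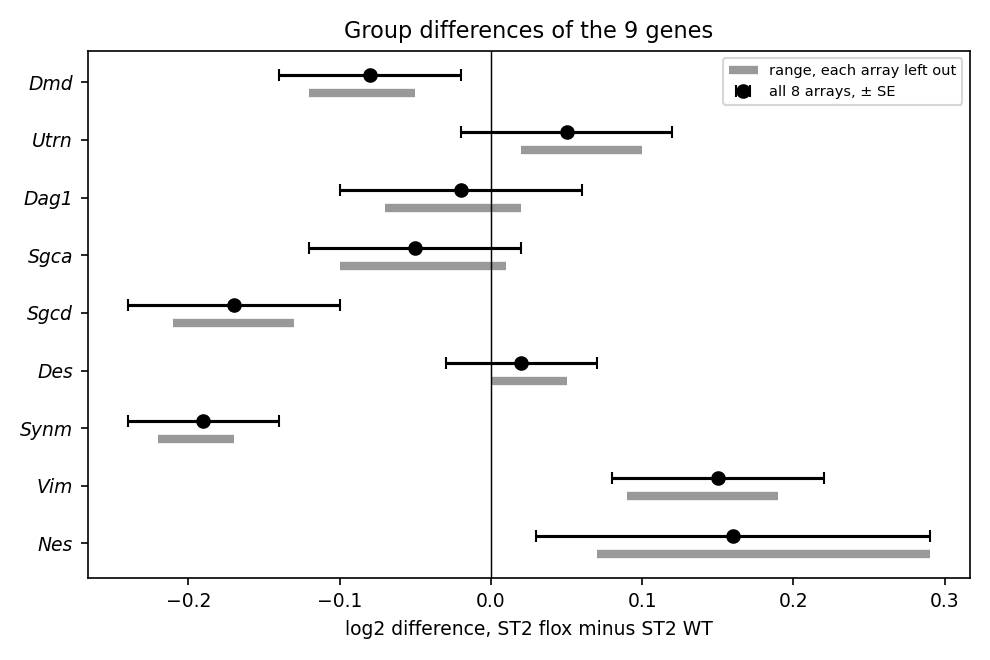
Log2 difference of the group means, ST2 flox minus ST2 WT (x axis), for each of the 9 genes (y axis), with points and bars for all 8 arrays ± limma's SE and grey bars for the range when each array was left out in turn. The grey bars of Dmd, Sgcd and Synm stay below 0 and those of Utrn, Vim and Nes above 0. The grey bars of Dag1 and Sgca cross 0, and that of Des reaches down to 0.00.

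The windows before the transcription starts of 4 genes are shown because Synm and Sgcd had the most negative differences and Vim and Dmd varied in opposite directions over the arrays. They are the 250 bases before the start in RefSeq (GRCm38.p6), whose table listed a window for all 9 genes. The Utrn window is not printed, since its last letters resemble a splice acceptor and may not lie before a true start. Capitals mark matches on either strand to the E-box CANNTG, the GC box GGGCGG, the MCAT element CATTCC, the N-box CCGGAA, the AP-1 site TGANTCA, the TATA box TATAAA and the CCAAT box, and to the CArG box and the MEF2 site, which are given by name. For Dmd, the window at the first of 2 starts is given.
Synm (chr7:67759743-67759992, minus strand): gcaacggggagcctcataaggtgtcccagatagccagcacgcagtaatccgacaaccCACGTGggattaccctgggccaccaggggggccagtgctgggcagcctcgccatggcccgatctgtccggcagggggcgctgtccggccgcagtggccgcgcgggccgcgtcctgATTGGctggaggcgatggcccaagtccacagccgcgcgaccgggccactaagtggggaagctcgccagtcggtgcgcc
Sgcd (chr11:47379326-47379575, minus strand): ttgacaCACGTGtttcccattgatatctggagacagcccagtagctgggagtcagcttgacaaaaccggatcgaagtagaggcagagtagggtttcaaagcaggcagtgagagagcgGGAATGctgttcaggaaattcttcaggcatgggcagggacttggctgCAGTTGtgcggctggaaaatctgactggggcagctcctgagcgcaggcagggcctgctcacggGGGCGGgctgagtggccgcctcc
Vim (chr2:13574061-13574310, plus strand): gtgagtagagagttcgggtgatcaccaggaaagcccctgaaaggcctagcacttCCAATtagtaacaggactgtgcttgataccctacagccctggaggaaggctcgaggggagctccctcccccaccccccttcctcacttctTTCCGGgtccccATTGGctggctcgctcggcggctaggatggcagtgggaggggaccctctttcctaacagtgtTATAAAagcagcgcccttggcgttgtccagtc
Dmd (chrX:82948620-82948869, plus strand): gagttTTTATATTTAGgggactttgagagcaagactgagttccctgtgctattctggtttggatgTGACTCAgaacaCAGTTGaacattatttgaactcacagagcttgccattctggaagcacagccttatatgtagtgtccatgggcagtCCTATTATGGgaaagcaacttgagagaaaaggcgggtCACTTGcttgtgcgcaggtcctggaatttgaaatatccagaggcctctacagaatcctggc

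Synm and Sgcd shared an E-box match of the form CACGTG, at 193 bases before the start in Synm and at 244 bases in Sgcd. The form CACGTG occurred in 6.02% of 32851 such windows in the table and any CANNTG in 66.2%. The listed window of Utrn held it too, and those of the other 6 genes did not. Synm and Vim shared the CCAAT box (33.8% of windows), with 1 match in Synm, at 78 bases, and 2 in Vim, at 94 and 196 bases. Both windows listed for Dag1 held the CCAAT box as well. The Dmd window had a CArG box, a match to the target of serum response factor, starting 98 bases before the start, and a MEF2 site, named for a family of muscle transcription factors, starting 244 bases before it and overlapping the TATAAA match. Of all windows, 1.47% held a CArG box and 2.92% a MEF2 site, and none of the other windows listed for the 9 genes held either. Sgcd had an MCAT match at 133 bases (12.6% of windows) and Vim a TATAAA match at 32 bases (12.4%) and an N-box match at 106 bases (12.0%). These are matches of letters only.

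In 5 of the 9 genes the levels split by sample number the same way in both genotypes. Each of samples 3 and 4 lay above each of samples 1 and 2 for Dmd, Dag1 and Nes, and below them for Utrn and Vim. Such a split, looked for after the values were seen, was found in 55.6% of the 9 genes and in 17.5% of all genes. Tested beside genotype with limma's moderated F-test over all 4 numbers, 1 of 15007 genes was called by sample number (0.00666%), Opn1mw, named here after its values were seen. None of the 9 genes was called (smallest adjusted p 0.723, for Dag1), and 0 of the 9 had an unadjusted p under 0.05, as 6.94% of all genes did.

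Over the 8 arrays Utrn and Vim went together, Dmd went against both, and Synm went against Vim. For Utrn and Vim, Pearson's r was 0.84 (exact permutation p = 0.00799) and Spearman's rho 0.90 (exact permutation p = 0.00456). For Synm and Vim, r was -0.86 (exact permutation p = 0.00528) and rho -0.88 (exact permutation p = 0.00724). For Dmd, r was -0.82 with Utrn (exact permutation p = 0.0125; rho -0.88, exact permutation p = 0.00724) and -0.81 with Vim (exact permutation p = 0.0134; rho -0.98, exact permutation p = 3.97e-04). The r of Dmd and Utrn was only -0.39 with quantile normalization (exact permutation p = 0.345) and -0.53 with cyclic loess (exact permutation p = 0.175). Utrn and Synm had an r of -0.62 (exact permutation p = 0.107; rho -0.74, exact permutation p = 0.0458).

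None of these relations passed correction by r. With Benjamini-Hochberg adjustment over the 36 pairs, 0 passed 0.05 by Pearson's r (exact permutation, smallest adjusted p 0.121), 7 had an unadjusted exact p under 0.05, and 1, Dmd with Vim, passed by rho (exact permutation, adjusted p 0.0143). An absolute r of at least 0.7 was found for 7 of 36 pairs, or 19.4%, and for 14.1% of all pairs of genes tested. Without the 2 arrays farthest from the median of the first gene named, r was 0.97 for Utrn and Vim, -0.70 for Synm and Vim, -0.98 for Dmd and Utrn and -0.95 for Dmd and Vim. With each gene centred within its group, which takes the genotype out, r was 0.86, -0.91, -0.82 and -0.70 for the same 4 pairs. Centred instead within samples 1 and 2 and within samples 3 and 4, which takes that split out, r was 0.74, -0.94, -0.66 and -0.68.

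Dag1 also went with both Nes and Dmd, while Dmd and Nes went together only with the groups centred. Dag1 and Nes had an r of 0.75 (exact permutation p = 0.0392; rho 0.83, exact permutation p = 0.0154) and Dmd and Dag1 one of 0.76 (exact permutation p = 0.0313; rho 0.69, exact permutation p = 0.0694). Neither passed over the 36 pairs (exact permutation, adjusted p 0.215 each). Without the 2 farthest arrays, r was 0.44 for Dag1 and Nes and 0.60 for Dmd and Dag1. With any 1 array left out, it stayed between 0.68 and 0.91 for Dag1 and Nes and between 0.69 and 0.89 for Dmd and Dag1. Centred within groups, r was 0.85 for both pairs. Dmd and Nes had an r of 0.47 uncentred (exact permutation p = 0.240) and a rho of 0.26 (exact permutation p = 0.536). Their r was 0.07 without the 2 farthest arrays and 0.89 centred within groups. All 3 genes split by sample number, and centred within samples 1 and 2 and within samples 3 and 4, r was 0.38 for Dag1 and Nes and 0.37 for Dmd and Dag1. Dag1 and Des ran against each other (r = -0.71, exact permutation p = 0.0418; rho -0.60, exact permutation p = 0.132; -0.84 without the 2 farthest arrays), also short of the corrected threshold (adjusted p 0.215 by the exact permutation test).

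**Figure D3:**
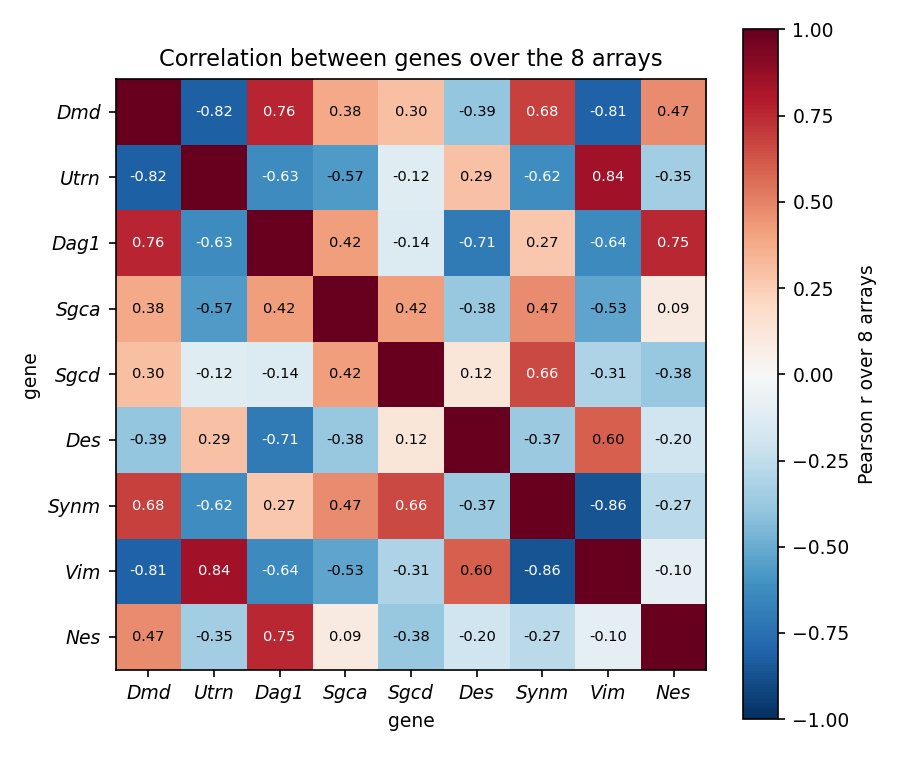
Pearson's r over the 8 arrays for each pair of the 9 genes (both axes list the genes, colour and printed value give r). Utrn and Vim (0.84) are opposed to Dmd and Synm, Dag1 and Nes go together (0.75), and Sgcd has no value beyond 0.66 with any of the others.

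Cell type markers moved with several of the genes. The mean over 14 macrophage markers was 0.30, 0.34, 0.05 and -0.33 on ST2 flox arrays 1 to 4, against -0.13, 0.03, -0.15 and -0.11 on the ST2 WT arrays (log2, centred per gene). All 14 had a higher mean in ST2 flox, while 51.2% of all genes had a lower one. Other lists went both ways. Higher were 11 of 15 regenerating fibre and myoblast, 8 of 10 endothelial and 7 of 11 smooth muscle and pericyte markers. Lower were 12 of 15 mature fibre and 4 of 6 Schwann cell markers. Of the 14, 0 passed limma's adjusted threshold. An unadjusted p under 0.05 was found for 1 of them, and for 2.03% of all genes in this direction. Their summed intensity ran from 14340 to 21300 in ST2 flox and from 15320 to 18340 in ST2 WT. The lowest of the 14 was Cd14 at a mean log2 level of 7.29. This is above the filter at 6.35, which all markers tested had passed, and below the median row at 7.54. In whole muscle, fewer cells of a type and less RNA per cell cannot be told apart.

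With the deposited scaling, Utrn had the highest absolute r with this list among the 9. Its r with the macrophage list was 0.94 (exact permutation p = 7.19e-04, 0.0391 after adjustment over 63 relations of 9 genes with 7 lists; rho 0.98, adjusted p 0.0250). Its r with the list of 10 fibroblast markers was 0.92 (exact permutation p = 0.00124, adjusted p 0.0391; rho 0.95, adjusted p 0.0359). These were the only 2 of 63 relations to pass, with r of 0.94 and 0.91 without the 2 arrays farthest from the list median and of 0.93 and 0.92 centred within groups. The fibroblast list averaged 0.20, 0.11, 0.11 and -0.28 on ST2 flox arrays 1 to 4, against -0.07, 0.08, -0.10 and -0.05 on the ST2 WT arrays. Its 10 markers summed to between 35900 and 46370 in ST2 flox and between 39350 and 44290 in ST2 WT, and 8 of them had a higher mean in ST2 flox. Neither relation passed with quantile normalization or cyclic loess between arrays (adjusted p of at least 0.196 by the exact permutation test). With the macrophage list, Utrn then had an r of 0.66 (quantile) and 0.78 (loess), below those of Dmd (-0.90 in both) and Vim (0.88 in both) in size. Nor did either pass with values centred within samples 1 and 2 and within samples 3 and 4 (r of 0.89 each, adjusted p 0.146 each by the exact permutation test), or without ST2 flox sample 3 or 4 or ST2 WT sample 1, 2 or 4 (at least 0.0594). Without ST2 flox sample 2 only the fibroblast relation passed, and without ST2 WT sample 3 only the macrophage relation.

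Vim (r = 0.85, exact permutation p = 0.00583, adjusted p 0.0918; rho 0.83, exact permutation p = 0.0154; 0.65 without the 2 farthest arrays) also ran with the macrophage list, without passing. Dmd ran against it (r = -0.88, exact permutation p = 0.00402, adjusted p 0.0844; rho -0.81, exact permutation p = 0.0218; -0.71 without the 2 farthest arrays). An absolute r of at least 0.7 with the macrophage list was found for 3 of the 9 genes, or 33.3%, against 34.9% of all genes, so the share among the 9 is that of the whole table. For the fibroblast list it was 2 of 9, or 22.2%, against 29.0% of all genes. The part of these cell types in the levels of the 9 genes was not tested.

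**Figure D4:**
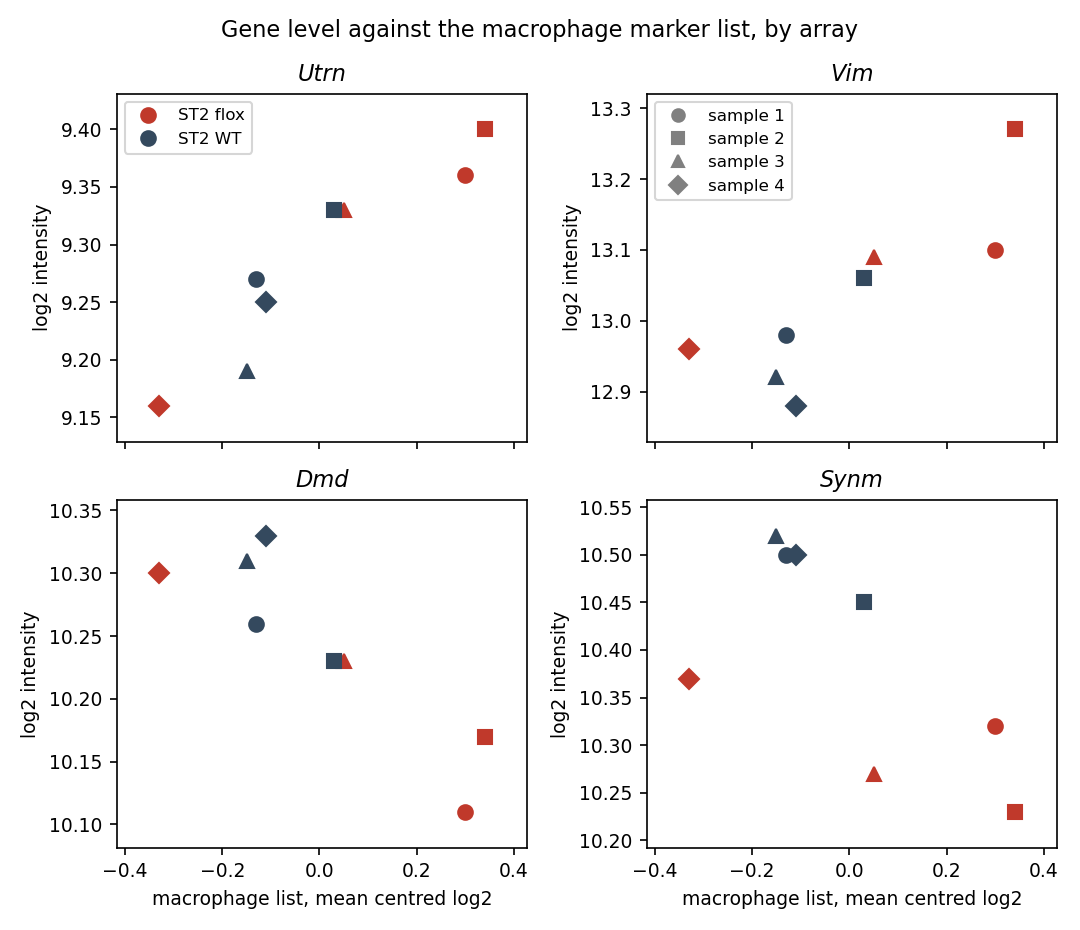
Log2 intensity of Utrn, Vim, Dmd and Synm (y axes) against the mean centred log2 level of the macrophage marker list (x axis) on 4 ST2 flox (red) and 4 ST2 WT (dark blue) arrays, with marker shape giving the sample number. Utrn climbs along the list from ST2 flox sample 4 (9.16) to ST2 flox sample 2 (9.40), and Dmd descends, while for Synm the ST2 flox samples, low or high on the list, all lie below the ST2 WT samples.

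Fibre markers went with other members. Nes had an r of 0.85 with the regenerating fibre and myoblast list (exact permutation p = 0.00875, adjusted p 0.110; rho 0.74, exact permutation p = 0.0458; 0.71 without the 2 farthest arrays). That list averaged -0.21, 0.01, 0.16 and 0.18 on ST2 flox arrays 1 to 4, against 0.05, -0.09, -0.04 and -0.06 on the ST2 WT arrays, so that ST2 flox sample 1 was lowest for the list and second lowest for Nes. Dag1 had an r of 0.86 with the mature fibre list (exact permutation p = 0.0143, adjusted p 0.129; rho 0.67, exact permutation p = 0.0831; 0.93 without the 2 farthest arrays), which was 0.03 centred within samples 1 and 2 and within samples 3 and 4. Sgca had one of 0.72 with the same list (exact permutation p = 0.0340, adjusted p 0.238; rho 0.43, exact permutation p = 0.299), which fell away to -0.06 without the 2 farthest arrays. An absolute r of at least 0.7 was found for 1 of 9 genes with the regenerating list (11.1%, against 9.35% of all genes) and for 2 of 9 with the mature list (22.2%, against 14.0%). Synm and Sgcd reached it with none of the 7 lists over all 8 arrays uncentred. Centred within groups, Synm had an r of -0.73 with the macrophage list. Sgcd then had 0.79 with the endothelial list and 0.77 with the smooth muscle and pericyte list. None of these passed (exact permutation, adjusted p of at least 0.157). Without the 2 farthest arrays, r with the fibroblast list was -0.87 for Synm and -0.75 for Sgcd.

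With the endothelial list 0 of 9 reached an absolute r of 0.7, against 17.9% of all genes. With the smooth muscle and pericyte list 1 of 9 did (11.1%, against 18.3% of all genes). This was Vim (r = 0.71, exact permutation p = 0.0491, adjusted p 0.309; rho 0.69, exact permutation p = 0.0694), whose r was 0.20 without the 2 farthest arrays. With the Schwann cell list 1 of 9 did (11.1%, against 10.3% of all genes). This was Utrn (r = -0.78, exact permutation p = 0.0268, adjusted p 0.211, and rho -0.81, exact permutation p = 0.0218). Its r was -0.31 without the 2 farthest arrays and between -0.87 and -0.70 with any 1 array left out. For Vim with the smooth muscle and pericyte list, r with 1 array left out ranged from 0.27, without ST2 flox sample 2, to 0.84.

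The genes closest to each member were ranked by r over the 8 arrays with both groups centred. The 3 closest to Nes were Ttc9 (0.993), Klhl41, a kelch protein of the sarcomere (0.988), and Inpp5j (0.987). The 3 closest to Vim were Glipr2 (0.990), Itga5, the fibronectin receptor's alpha chain (0.982), and Sh3kbp1 (0.978). Sgca was closest to Mcrip2 (0.998), Asb2, a muscle ubiquitin ligase subunit (0.993), and Trim16 (0.981), and Synm to Tmem253 (0.985), Fbxl18 (0.977) and Cmtm4 (0.966). Dmd was closest to Pigo and Scap (0.993 each), Utrn to Esyt2 (0.990), Dag1 to Ppil1 (0.987), Sgcd to Cln6 (0.991) and Des to F2rl2 (0.963). Each is among the 3 highest r of that member with all other genes tested, on only 8 arrays, and is given as a description.

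Around the 9 genes, the rest of the pathway was examined in 6 lists, and 0 members of any passed limma's adjusted threshold (0% of all genes did). Of the other dystrophin complex genes, 6 of 13 had a higher mean in ST2 flox and 7 a lower one, with a median difference of 0.00 and none with an unadjusted p under 0.05. The smallest p belonged to Cavin4, a caveolar coat protein of muscle, at -0.12 (SE 0.07). Of 13 dystroglycan glycosylation genes, whose products build the sugar chain that laminin binds, 9 were higher and 4 lower (median 0.02), led by Dpm2 at 0.10 (SE 0.06) and B3galnt2 at -0.14 (SE 0.09).

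Laminins, other ligands and integrins had 13 of 15 members higher in ST2 flox, with a median of 0.05. Of these, 3 had an unadjusted p under 0.05, all higher (2.03% of all genes were so). Nid2, a basement membrane linker, read between 8.47 and 8.66 in ST2 flox, against 8.35 to 8.45 in ST2 WT. Its difference was 0.16 (SE 0.06) with groups apart, as for 1.14% of all genes in this direction. Itga5 differed by 0.34 (SE 0.12) and Itga6, a laminin receptor chain, by 0.16 (SE 0.07), both overlapping. Sarcolemma repair genes were higher for 10 of 12 (median 0.09), led by the annexins Anxa2 at 0.27 (SE 0.16) and Anxa5 at 0.16 (SE 0.10), and none had an unadjusted p under 0.05.

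Of the other intermediate filament genes, 6 of 13 were higher and 7 lower (median -0.02). Nefh, the heavy neurofilament of axons, differed by -0.15 (SE 0.06). It alone had an unadjusted p under 0.05, as did 1.77% of all genes in this direction. The lamins Lmnb1 (0.10, SE 0.06) and Lmna (0.13, SE 0.07) had higher means. Filament linkers, chaperones and costamere genes were higher for 16 of 23 (median 0.04). Among them Macf1, which links actin to microtubules, read 9.85 to 9.97 in ST2 flox, against 9.73 to 9.79 in ST2 WT (0.12, SE 0.05), and Tln1, which ties integrins to actin, 10.01 to 10.13 against 9.96 to 10.00 (0.10, SE 0.05). The groups were apart for both, as for 1.14% of all genes in this direction. Csrp3, a stretch-responsive protein of the Z-disc, differed by 0.43 (SE 0.24) with groups that overlapped. The ligand and integrin list averaged 0.08, 0.10, 0.06 and -0.07 on ST2 flox arrays 1 to 4, against -0.05, -0.08, -0.04 and -0.02 on the ST2 WT arrays, and the repair list 0.12, 0.16, 0.07 and -0.14, against -0.08, -0.01, -0.06 and -0.05. Like the macrophage and fibroblast lists, the repair list was lowest on ST2 flox sample 4. The part of these cell types in the pathway lists was not tested.

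**Figure D5:**
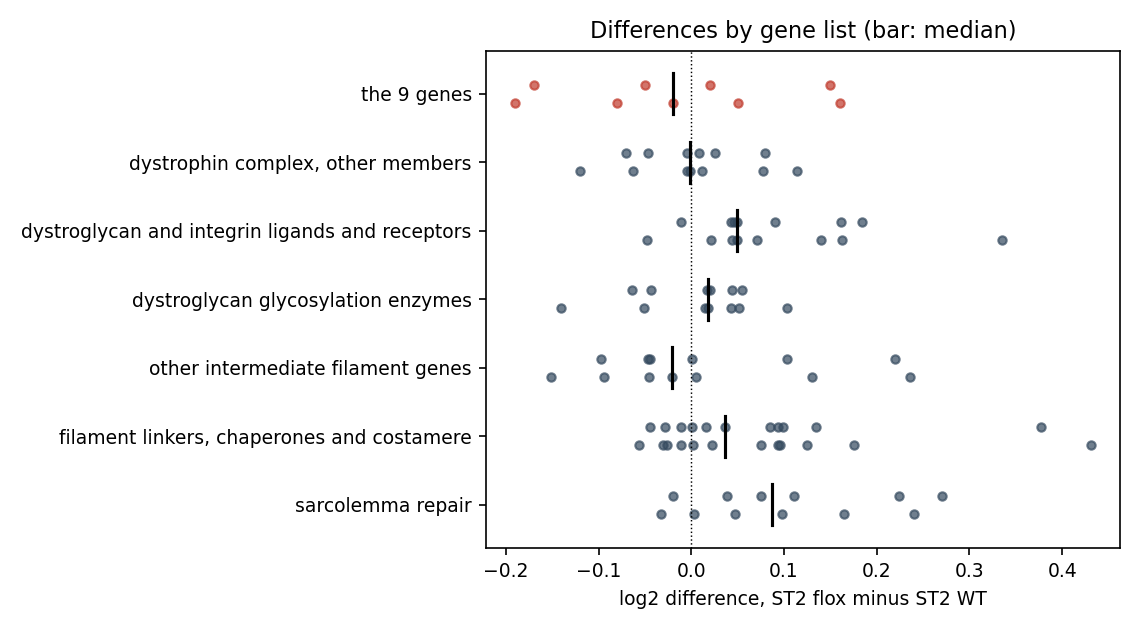
Log2 difference, ST2 flox minus ST2 WT (x axis), of each gene in the 9 (red) and in the 6 pathway lists (dark blue), 1 row per list, with a black bar at the list's median. The 9 spread from -0.19 to 0.16 around -0.02, and sarcolemma repair genes have the highest list median, 0.09.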

How the data were processed

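Total RNA from 8 whole muscle samples was hybridised to Affymetrix Mouse Gene 1.0 ST arrays. The authors deposited probeset intensity values, made with RMA in Affymetrix Power Tools per the submitters' processing notes; versions, build and filters were not given in the sources used here. These intensity values span 5.81 to 19080, a linear scale. RMA makes arrays alike, which would hide a change common to most genes, and it compresses changes of dim rows.

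From these, log2 was taken without a pseudocount. Of 24922 rows, 21425 had 1 gene symbol, 1399 several and 2098 none. Rows with a mean log2 below 6.35, the 25th percentile, were left out, and the brightest row per gene was kept. The group comparison used limma 3.58.1 (R 4.3.3) over all 15007 genes with Benjamini-Hochberg adjustment at 0.05. On simulated data for this comparison of 15007 genes, 89 of 100 genes changed 1.5-fold and 97 of 100 changed 2-fold were recovered. With either fold there were 8 false calls among the rest. Both folds exceed the difference of every member, the largest being that of Synm at 0.874-fold, so recovery at such sizes was not tested. Whether the simulated arrays carried the variation that genes share over the real arrays is not stated here. The counts are therefore not read as the power of the real comparison. Correlations used two-sided exact permutation tests over all pairings of 8 arrays (numpy 2.4.6). Alternatives were other filters, scalings, row choice, prior, sample number and each array left out, and, added after the data were seen, centring within samples 1 and 2 and within samples 3 and 4. Precision is limited by the number of arrays.

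The 9 genes and all lists were chosen with earlier results of these data known. Genes named are the 9, up to 3 of each list with the smallest p between groups, and up to 3 of those closest to each member by r. List genes without a row of their own above the filter are not analysed here.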

Additional observations from a re-analysis of the deposited data

How the results depend on the processing

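The count of genes called between ST2 flox and ST2 WT was 0 under all 8 alternatives other than leaving out an array, and 0 to 2 with each array left out (Cd3g and Ctsh, without ST2 flox sample 4). Genes with an unadjusted p under 0.05 numbered 3012 without ST2 flox sample 4, against 569 with all arrays. With the sample number as a replicate block, 0 genes were called. The 9 differences kept their values, as they must when each number occurs once per group. Deviations of same-numbered samples correlated by 0.00, 0.35, 0.25 and 0.04 over 15007 genes. Samples of unlike number were not correlated in this way, so these values do not settle whether the numbers mark pairs. The numbers were not taken as pairs, and the labels do not say what a number stands for. Of the 9 genes, 5 were lower in ST2 flox under every scaling, and 4 to 5 with an array left out. Filter, row choice and prior could not change this count. Each of the 9 had 1 row and lay above both filters, and the prior alters the SE and not the difference. Dag1 ranged from -0.07 to 0.02 with an array left out. The number of genes called for sample number was 1, became 0 with the filter at the 50th percentile, quantile normalization or cyclic loess, and 2 without genotype in the model. Among pairs of the 9, 0 passed by r, 5 passed with values centred within groups, 1 (Synm with Vim) with values centred within samples 1 and 2 and within samples 3 and 4, a setting chosen after seeing the data, and 0 to 1 with an array left out. The 5 passing within groups were Dmd with Nes, Utrn with Synm, Utrn with Vim, Dag1 with Nes and Synm with Vim. Either centring leaves fewer free values than the permutation assumes, so its p-values are too small. The r of Dmd and Utrn, -0.82, was -0.39 with quantile normalization and -0.53 with cyclic loess. Of the 2 relations of Utrn with marker lists, 0 passed with quantile normalization or cyclic loess (r as low as 0.66 with macrophage and 0.70 with fibroblast markers), 1 with centring within groups, 0 with centring by sample number, and 0 to 2 with an array left out. None passed without ST2 flox sample 3 or 4 or ST2 WT sample 1, 2 or 4. With 7 arrays a permutation test has fewer pairings, and the cause of the loss under other scalings was not tested.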
